A study of Mus musculus with 8 samples.

Results

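The macrophages described here are cells of the large pancreatic tumor of a KPC mouse, picked from its count table by their marker genes. A cell was taken when it held at least 1 unique molecular identifier (UMI, a tag that counts 1 captured mRNA molecule) for 3 or more of Lyz2, C1qa, C1qb, C1qc, Cd68, Csf1r, Adgre1, Mrc1, Cd14, Fcgr3 and Ms4a7. It also had to show fewer than 3 of the epithelial genes Muc1, Cdh1, Elf3, Spint2, Tspan8, the claudins Cldn3, Cldn4 and Cldn7, and the keratins Krt7, Krt8 and Krt18. This rule found 179 of the 1533 cells of the large tumor, a share of 11.7% (exact 95% binomial interval 10.1% to 13.4%), and the series holds 4345 cells in all. Because these 22 genes chose the cells, their levels are given as a description.

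The tumors came from untreated mice of the KPC strain, which carries LSL-Trp53R172H/+ and Pdx-1-Cre among its alleles, so that Cre made under the Pdx-1 promoter of the pancreas switches on the mutant alleles. Both tumors share this genotype, and no tumor-free tissue was analysed here. Fresh tumors were dissociated into single cells and captured with the Chromium 3′ chemistry. Per the labels each tumor had 4 technical replicates, which share 1 count table, so the large and the medium tumor are 1 sample each and no test between them was possible. The labels and the study's methods give no age for the mice.

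Macrophages are phagocytes that arise from blood monocytes or from cells seeded in the tissue before birth. They engulf debris and dying cells, degrade them in lysosomes, present peptides on MHC class II, and release chemokines that draw in other leukocytes. In pancreatic carcinoma they are among the most frequent immune cells, and they are known for complement C1q and matrix proteins as well as for inflammatory cytokines.

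The C1q genes, which encode the recognition part of the first complement component, made up 3 of the 11 macrophage markers, and they lie side by side on chromosome 4. The bases before the starts of C1qb and C1qc are shown because C1q marks these cells. A further reason is that PU.1, the transcription factor that macrophages depend on, binds sites with the core GAGGAA. The promoter set used held no entry for C1qa, so C1qa was not searched. Capitals mark these letters on either strand (GAGGAA, or TTCCTC as read from the other strand). The sequences are from RefSeq (GRCm38.p6), 5′ to 3′ along the gene, on the minus strand, at chr4:136886201-136886450 for C1qb and chr4:136893066-136893164 for C1qc. The window of C1qc stops where the GENCODE model of the gene begins.
C1qb: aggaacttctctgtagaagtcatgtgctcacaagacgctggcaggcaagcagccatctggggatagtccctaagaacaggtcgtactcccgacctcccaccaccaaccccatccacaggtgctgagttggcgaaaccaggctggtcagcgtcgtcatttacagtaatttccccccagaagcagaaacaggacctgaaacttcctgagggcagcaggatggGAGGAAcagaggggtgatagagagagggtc
C1qc: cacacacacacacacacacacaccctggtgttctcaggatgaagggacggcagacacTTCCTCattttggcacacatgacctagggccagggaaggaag
The letters began 30 bases before the RefSeq start of C1qb and 193 bases before that of C1qc. In the 250 bases before the start, 23.3% of 32851 RefSeq promoters held them on either strand, so the match is a description only.

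The 179 cells held 144454 UMIs, with a median of 718 UMIs (range 530 to 1964) and 429 detected genes per cell. The other 1354 cells of the tumor had a median of 1125.5 UMIs, and the 735 of them with 3 or more epithelial and fewer than 3 macrophage markers, called epithelial cells here, had 1565. Levels are given as CPM, the UMIs of a gene per 1000000 UMIs summed over a group of cells, with exact 95% Poisson intervals. The intervals cover counting error only. In these macrophages 1 UMI is worth 6.92 CPM, and a gene at 0 UMIs has a limit of 20.8 CPM (3 counts over all members). The 13 mitochondrial genes are listed at 0 throughout the table. Of the barcodes, 5 occur in both tumors' tables, 1 of them a macrophage of the large tumor, and no barcode is a macrophage in both.

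Many members sat close to the threshold. They showed 3 macrophage markers in 58 cells, 4 in 53, 5 in 39, 6 in 20, 7 in 7 and 8 in 2, and none showed more. Just outside it were 52 cells with 2 macrophage markers, in which 20 genes of myeloid identity that the rule did not use summed to 9317 CPM. The same genes summed to 12255 CPM in the cells with 3 markers and to 14548 CPM in those with 4 or more. On the epithelial side, 152 members showed 0 of the 11 epithelial markers, 25 showed 1 and 2 showed 2, and only 6 cells of the tumor had 3 or more markers of each kind. In a clustering of all cells of the tumor, 175 of the 179 members fell into 1 cluster of 253 cells.

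**Figure D1:**
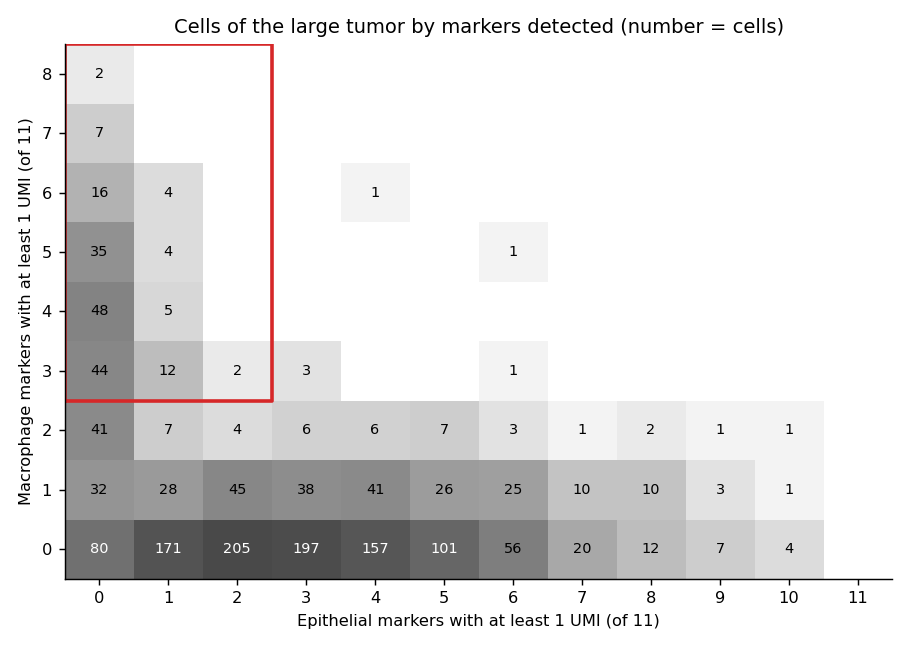
Cells of the large tumor by the number of epithelial markers (x axis) and macrophage markers (y axis) with at least 1 UMI, with the number of cells in each square and darker squares for more cells. The red frame encloses the 179 macrophages, of which 152 had no epithelial marker.

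Among the rule's genes, Lyz2, the lysozyme of phagocytes, was by far the most frequent, with 2407 UMIs in 175 of the 179 cells and 16663 CPM (16004 to 17342). C1qc had 2021 CPM, C1qa 1205 CPM and C1qb 893 CPM. Cd14, a co-receptor for bacterial lipopolysaccharide, had 761 CPM, and Fcgr3, a receptor for antibody, had 720 CPM. Mrc1, the mannose receptor, Cd68, Csf1r, the receptor for the growth factor CSF1, Adgre1, which encodes F4/80, and Ms4a7 had 76.1 to 249 CPM. Each of these 5 genes was thus seen in few cells, from 8 cells for Ms4a7 to 30 for Cd68 and Mrc1. Lyz2 also carried the most weight in the rule, since 124 cells (8.09% of the tumor) met it with Lyz2 left out.

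The label was set against myeloid genes outside the rule. All 20 genes of the myeloid identity list were detected, 19 of them with 10 or more UMIs, and 178 of the 179 cells held at least 2 of them, against 33 of the 735 epithelial cells. Tyrobp and Fcer1g, adaptor proteins of activating receptors, had 2264 CPM (2025 to 2523) and 2104 CPM (1875 to 2355), against 66.8 and 64.5 CPM in the other cells. Itgam, which encodes CD11b, had 332 CPM and 12.4 CPM in the other cells. Spi1, which encodes PU.1, had only 10 UMIs.

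Most markers of other cell types were scarce, and granulocyte and hemoglobin genes came mostly from 1 cell each. The lists for natural killer and acinar cells had 0 UMIs, 3 of 12 dendritic cell genes were detected with 4 UMIs in all, and Il7r, with 10 UMIs, was the only T cell gene seen. The fibroblast list summed to 125 CPM, against 560.0 CPM in the other cells. Of the 488 UMIs of the granulocyte genes S100a8, S100a9, Camp and Ngp, 432 lay in 1 member, which had 778 UMIs in total and 3 macrophage markers. A second member held 165 of the 181 hemoglobin UMIs (Hbb-bs, Hbb-bt, Hba-a1 and Hba-a2, near-identical copies whose reads can be split between them). Of the intestinal epithelium list, 12 of 19 genes were detected with 83 UMIs in 38 members, 575 CPM against 6362 CPM in the other cells. Fabp1, a lipid carrier of the gut epithelium, had 43 of these UMIs in 16 members, 298 CPM against 2346 CPM, and the part of free RNA in it was not tested.

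The most abundant transcripts of the macrophages were those of Tmsb4x, which binds actin, with 39438 CPM, and Fth1, the heavy chain of ferritin, with 23032 CPM. Lyz2 came next, followed by the neutrophil attractant Cxcl2 with 12343 CPM (11777 to 12930), the nuclear RNA Malat1 with 11658 CPM and Spp1, the secreted phosphoprotein osteopontin, with 11623 CPM. Fn1, fibronectin, had 5081 CPM, and the other 8 of the 15 highest genes were ribosomal proteins, Tpt1 and Eef1a1. The other cells of the tumor had more Spp1, 18050 CPM, and 83.5% of epithelial cells held a UMI against 84.9% of the macrophages. Thinned to 500 UMIs per cell, the shares for Spp1 were 72.7% and 81.6%.

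Of 1377 genes with a mean of at least 100 CPM over both groups, 256 (18.6%) were at least 2-fold higher in the macrophages than in the other cells of the tumor and 173 (12.6%) at least 2-fold lower. Here and below a ratio has 10 CPM added to both sides. The rule was built on this contrast, so the counts describe the cells and test nothing. Outside the rule, high ratios were those of Ctss (37.2), a cathepsin that trims peptides for MHC class II, and Apoe (36.6), the lipid-carrying apolipoprotein. They were followed by H2-Aa (30.1), Tyrobp (29.6), Fcer1g (28.4), Ccl6 (28.4), H2-Ab1 (27.6), Clec4n (27.4), Ccl4 (25.2) and Pf4 (22.4). H2-DMa (22.1), Rnase2a (22.0), the scavenger receptor Marco (21.8) and the chitinase-like gene Chil3 (21.6) came after them. The order of these genes depended on the processing. With the macrophages taken by cluster the ratio was 81.3 for Ctss, 79.7 for Chil3, 74.4 for Pf4 and 49.4 for Apoe, and with each cell given the same weight it was 20.6 for Ctss and 11.2 for Chil3. The ratio of Rnase2a lay between 6.53 with 50 CPM added and 57.7 with 1 CPM added.

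**Figure D2:**
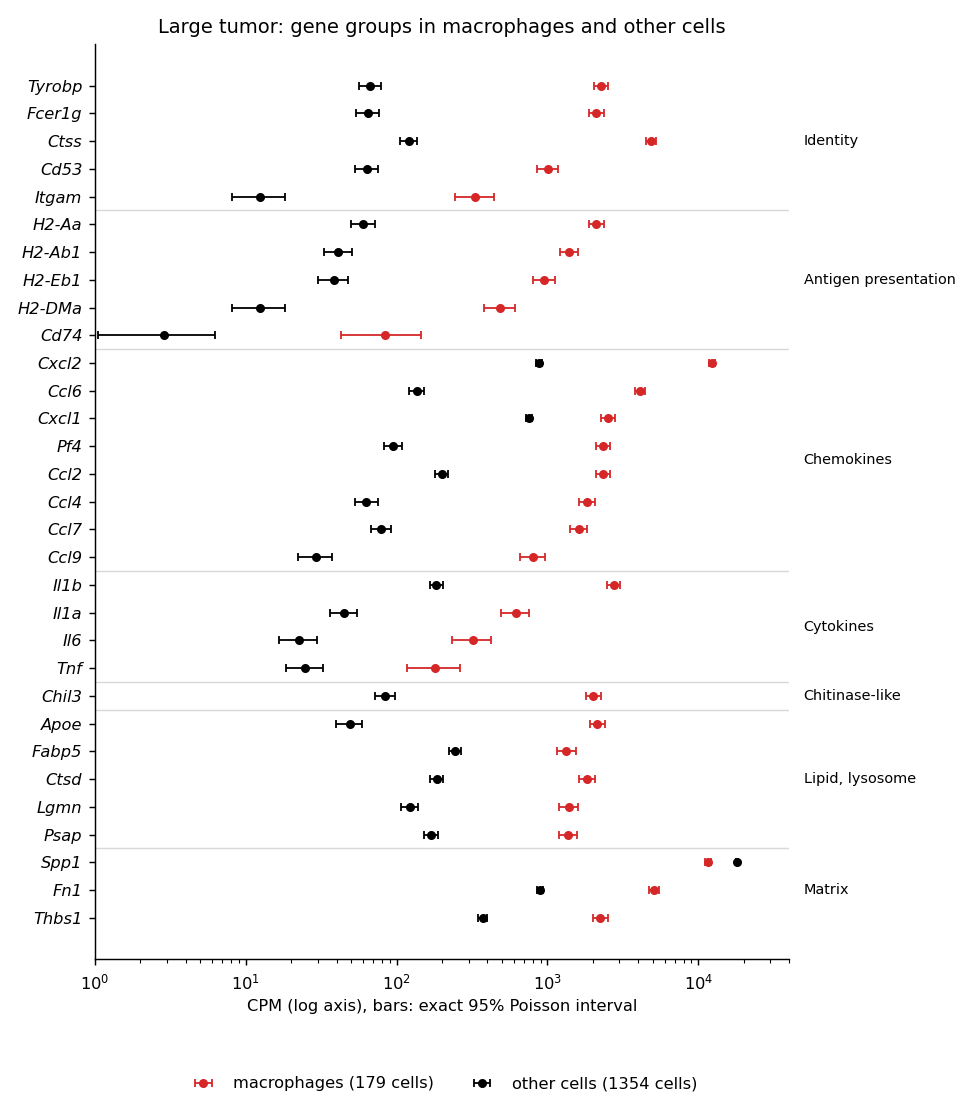
CPM of genes from several functional groups in the 179 macrophages (red) and the 1354 other cells (black) of the large tumor, on a log axis, with exact 95% Poisson intervals as bars. Apart from Spp1, which was higher in the other cells, each gene shown was higher in the macrophages.

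As a group, chemokines and their receptors were far higher than in the other cells. The list of 22 chemokines and receptors summed to 30148 CPM, against 2550 CPM in the other cells, and 13 of its 14 tested genes were at least 2-fold higher in the macrophages, beside 18.6% of all genes. Cxcl2 was detected in 85.5% of them and in 32.5% of the epithelial cells, and at 500 UMIs per cell in 82.1% and 13.6%. Ccl6, a chemokine of myeloid cells, followed with 4119 CPM in 142 cells. Cxcl1, another neutrophil attractant, had 2513 CPM but also 757 CPM in the other cells. Pf4 had 2333 CPM, and the monocyte attractants Ccl2 and Ccl7 had 2326 CPM (2084 to 2588) and 1620 CPM (1419 to 1841). Ccl4 had 1828 CPM, Ccl9 796 CPM and Ccl3 651 CPM. The attractants of T cells stood at the other end, with Cxcl9 and Ccl5 at 0 UMIs and Cxcl10 at 1 UMI.

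The inflammatory cytokines were uneven. Il1b had 2748 CPM (2485 to 3032) and was seen in 99 cells. Il1a had 616 CPM, Il6 318 CPM, the prostaglandin synthase gene Ptgs2 291 CPM and Tnf 180.0 CPM. Nos2, the inducible nitric oxide synthase, had 2 UMIs, and Il12b had none. The interferon-stimulated list was close to silent, with 6 of 14 genes detected and 20 UMIs in all, of which Ifi27l2a had 11.

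Genes used as marks of alternative activation were also detected. Chil3 had 2014 CPM (1790 to 2260) in 64 of the 179 cells, against 83.5 CPM in the other cells, and Mrc1 had 249 CPM. Retnla, also used as a marker of this state, was confined to 1 cell with 9 UMIs. Of the list of tissue-resident macrophage genes, 12 of 14 were detected, 3 of them with 10 or more UMIs, and the list summed to 3461 CPM against 672 CPM in the other cells. Most of these UMIs were of Pf4, with 337 of 500, and Sepp1, with 83, while Lyve1 and Timd4 had 2 UMIs and Folr2 had 3. The monocyte gene Ly6c2 had 2 UMIs. Of the monocyte list, 14 of 17 genes were detected, and it summed to 10841 CPM against 7400 CPM in the other cells. Of its 9 tested genes, 6 were at least 2-fold higher than in the other cells and 1 at least 2-fold lower. Of all genes 18.6% were higher and 12.6% lower. Fn1 at 5081 CPM and F13a1 at 256 CPM were among the higher ones.

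Lysosomal genes were broadly higher in the macrophages, with 14 of 16 tested at least 2-fold above the other cells, beside 18.6% of all genes. After Ctss (4832 CPM) came the protease inhibitor Cst3 (2229 CPM), Ctsl (2222 CPM), Ctsd (1828 CPM), Ctsb (1502 CPM), Lgmn (1385 CPM) and Ctsc (1378 CPM). Of the lipid and phagocytosis genes 9 of 11 were higher, led by Apoe with 2139 CPM, while Trem2, a lipid-sensing receptor, had 111 CPM. Of the Fc and pattern receptors 10 of 10 were higher, and the same background of 18.6% applies to both counts. The rule used this contrast, so the counts are a description.

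The MHC class II genes H2-Aa, H2-Ab1 and H2-Eb1, which form the peptide-presenting chains, had 2104 CPM, 1398 CPM and 948 CPM. Cd74, the invariant chain that accompanies them, had 12 UMIs and 83.1 CPM (42.9 to 145). The chain genes were unevenly spread over the cells. No UMI of the 3 was found in 80 cells (44.7%, median depth 747 UMIs), 1 or 2 UMIs in 38 cells, and 3 or more in 61 cells (34.1%, median depth 688 UMIs). Over the 179 cells, square-rooted depth-scaled counts of H2-Aa and H2-Ab1 had a Pearson r of 0.78. The points share 1 library and differ in depth.

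Cells without and with MHC class II UMIs differed in other genes. This split and the genes given for it were chosen after the values had been seen, so no test is attached. In the 80 cells without class II UMIs, Chil3 had 3537 CPM (3103 to 4013), against 603 CPM (404 to 866) in the 61 cells with 3 or more. The secreted protease inhibitor Slpi had 2314 CPM against 229 CPM, and the acute-phase gene Saa3 had 2078 CPM against 354 CPM. Ccl2 (2947 against 1477 CPM), Ccl7 (2166 against 1123 CPM) and Pf4 (3065 against 1435 CPM) were also higher in the cells without class II UMIs.
The other direction held for Apoe, with 1194 CPM without and 3120 CPM with class II UMIs, for Il1b, with 1871 and 3660 CPM, and for H2-DMa, which loads peptide onto class II, with 177 and 957 CPM. Ifitm1 had 2 UMIs in the first set and 36 in the second. The intervals of Tyrobp (2166 and 2308 CPM) and Cxcl2 (12511 and 13372 CPM) overlapped between the sets. Abundant genes also differed, among them Malat1, with 8340 CPM (7667 to 9057) without and 14683 CPM (13619 to 15807) with class II UMIs, and Lyz2, with 12467 and 19237 CPM. Fcer1g had 1768 CPM (1466 to 2114) and 2662 CPM (2221 to 3165), and the part of these differences in the split was not tested. Without the granulocyte-marker cell and the hemoglobin cell, Chil3 had 3537 CPM against 621 CPM, Slpi 2314 CPM against 236 CPM and Malat1 8340 CPM against 14742 CPM.

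**Figure D3:**
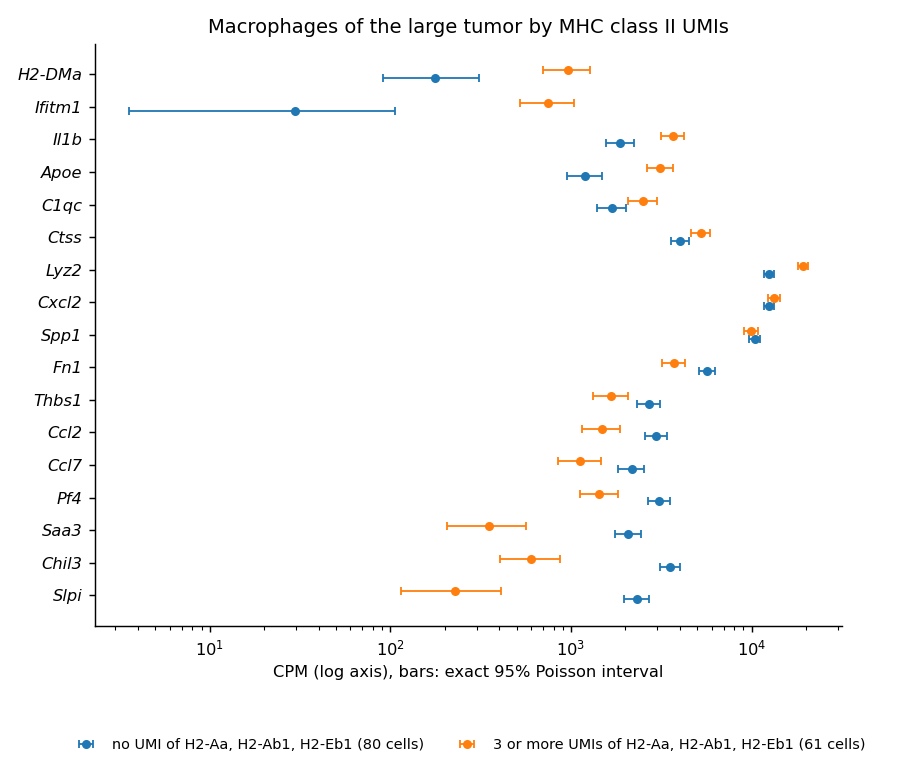
CPM of 17 genes in the macrophages without a UMI of H2-Aa, H2-Ab1 and H2-Eb1 (blue, 80 cells) and in those with 3 or more (orange, 61 cells), on a log axis, with exact 95% Poisson intervals. Slpi, Chil3 and Saa3 lie furthest to the right in the cells without class II UMIs relative to those with them, and H2-DMa and Ifitm1 furthest the other way.

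Some other genes varied together from cell to cell. Over the same 179 cells the r of Ccl2 and Ccl7, neighbours on chromosome 11, was 0.68, and that of Cxcl1 and Cxcl2, neighbours on chromosome 5, was 0.56. Of the 76 cells with Cxcl1, 75 also held Cxcl2, which was seen in 153 of all 179 cells. Marco was seen in 13 cells, 12 of which held Chil3, with an r of 0.40, and Chil3 was seen in 64 of all 179 cells. The C1q genes, neighbours on chromosome 4 that the rule used, varied together less. Their r was 0.33 for C1qa and C1qc, 0.10 for C1qb and C1qc and -0.017 for C1qa and C1qb. In the macrophages of the medium tumor, with more UMIs per cell, these were 0.87, 0.85 and 0.88. The part of depth in this was not tested.

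The same rule applied to the medium tumor gave 207 of 2812 cells, with a median of 3456 UMIs. At that depth 440 further cells of the medium tumor had 3 or more markers of both kinds, so the rule selects differently in the tumors. Over 1336 genes with a mean of at least 100 CPM, 126 (9.43%) were at least 2-fold higher in the macrophages of the large tumor and 110 (8.23%) at least 2-fold lower. The median log2 ratio was 0.15. With that median set to 0 the split was 85 higher and 139 lower, and with TMM scaling 78 and 142. After adjustment for GC content 62 were higher, 47 of them among the 126, and 97 lower, 76 of them among the 110. Relative to the other cells of each tumor 55 were higher and 40 lower, of which 18 and 16 were among the 126 and the 110. Tumor size, animal, library and depth cannot be told apart. The animals also differed in sex-linked RNA, since Xist, the RNA of the inactive X chromosome, had 256 UMIs in the macrophages of the large tumor and 0 in those of the medium tumor, while the Y-linked Ddx3y had 0 and 66.

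Many differences were common to other cells and followed base composition. In the macrophages the median log2 ratio over the quartile of genes with the lowest GC content in the last 500 bases of the transcript was 0.43, and over the quartile with the highest it was -0.38. In the other cells these medians were 0.37 and -0.50. Among 384 genes at least 2-fold over the other cells in a tumor, 44 (11.5%) were higher in the macrophages of the large tumor, and 15 of these were at least 2-fold higher in its other cells too. Of the 40 (10.4%) that were lower, 17 were lower there too. No share over all genes is given beside these overlaps, so they are a description. Over the 1302 tested genes with a GC value, the log2 ratios in the macrophages and in the other cells had a Spearman rho of 0.74. Ratios for the other cells are therefore given beside those of most genes, and the part of GC content in them was not tested.

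**Figure D4:**
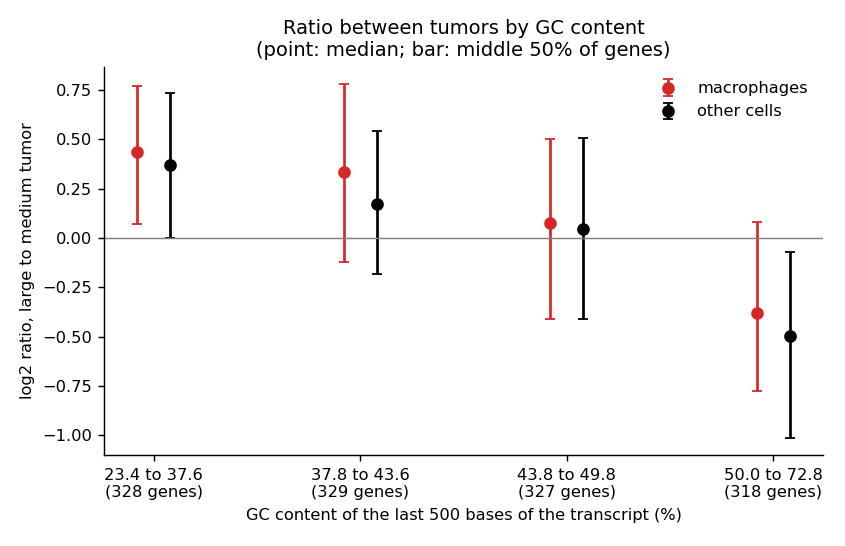
Log2 ratio of CPM in the large to the medium tumor, by quartile of GC content of the last 500 bases of the transcript, for macrophages (red) and other cells (black), with the median as a point and the middle 50% of genes as a bar. Both medians decrease with GC content, from 0.43 to -0.38 in the macrophages.

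Chemokines were the group with the most genes higher in the macrophages of the large tumor, 5 of 14 and none lower, beside 9.43% of all genes. Ccl2 had 2326 CPM against 719 CPM in the medium tumor, a ratio of 3.20, Ccl7 1620 against 522 CPM (3.06) and Cxcl3 367 against 176 CPM (2.02). In the other cells the ratios of these genes were 3.16, 2.22 and 3.37. Cxcl3 fell under 2-fold with TMM scaling (1.80), with 50 CPM added (1.84), with 4 markers needed (1.68), with 0 epithelial markers allowed (1.29) and after adjustment for GC content (1.53). Ccl12 (222 against 79.0 CPM, 2.60) and the eosinophil attractant Ccl24 (353 against 108 CPM, 3.09) had ratios of 1.17 and 1.47 in the other cells. With 0 epithelial markers allowed the ratio of Ccl12 was 8.29. Cxcl2 (1.37) and Pf4 (1.49) were under the 2-fold limit.

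Of the 10 highest ratios among the 384 genes at least 2-fold over the other cells in a tumor, 4 were set by the 2 unusual cells. Hbb-bs (26.5), Camp (18.7), S100a8 (17.7) and S100a9 (17.2) stood at 3.02, 0.72, 2.80 and 1.96 without them. In the other cells their ratios were 1.57, 2.21, 8.72 and 10.4, so S100a8 and S100a9 were also higher there. The others were the cytokine Lif (4.35, and 3.77 in the other cells), the fatty acid carrier Fabp4 (3.82 and 2.30), Ptgs2 (3.43 and 0.94), the oxidized lipoprotein receptor Olr1 (3.40 and 1.10), B4galt5 (3.35 and 1.70) and Ccl2. Ptgs2 and Olr1 thus differed between the macrophages of the tumors with other cells near 1. The ratio of Ptgs2 was 5.32 with 0 epithelial markers allowed, and that of Lif 2.75 with 50 CPM added. Spp1, with 11623 against 4570 CPM (2.54), had a ratio of 1.80 in the other cells, and 1.92 in the macrophages after adjustment for GC content.

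Cd74 had the lowest ratio of the 1336 genes, with 83.1 CPM in the large tumor against 5172 CPM in the medium tumor, 55.7-fold lower with 10 CPM added to both sides. In the other cells Cd74 was lower too, with 6 UMIs and 2.86 CPM against 140.2 CPM, and the ratio of 0.086 there is set largely by the 10 CPM added. Its partner chains moved far less, with ratios of 0.79 for H2-Aa (0.81 in the other cells), 0.56 for H2-Ab1 (0.58) and 0.48 for H2-Eb1, and the list of MHC class II genes had 3 of 8 lower (Cd74, H2-Eb1 and H2-DMb1) and 0 higher, beside 8.23% of all genes. The ratio of H2-Eb1 was 0.57 with 4 markers needed and 0.52 with each cell given the same weight, so it was then not past 2-fold. The matrix metalloelastase Mmp12 had 159 against 924 CPM (0.18), with a ratio of 0.86 in the other cells. C1qb had 893 against 2857 CPM (0.31) and C1qa 1205 against 2419 CPM (0.50), while C1qc, the third chain, had 2021 against 1944 CPM (1.04). The ratios of C1qb and C1qa in the other cells were 0.33 and 0.34.

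Several of the lowest ratios among the 384 genes were those of genes near 0 in the large tumor. The chemokine Ccl17 had 1 UMI there and 424 CPM in the medium tumor, 25.6-fold lower with 10 CPM added, and 61.2-fold lower without the constant (counting interval 10.9 to 2425). Its 327 UMIs in the medium tumor lay in 12 of the 207 macrophages, so few cells carry this difference. Prtn3, a granule protease, had 2 UMIs and was 18.6-fold lower with the constant and 31.3-fold lower without it (8.59 to 259). Gm12840, a predicted gene whose reads may belong to a near-identical copy, had 2 UMIs. Nov was at 0 UMIs against 223 CPM, at least 10.7-fold lower without the constant. The ratios of Ccl17 and Prtn3 in the other cells were 0.60 and 0.49, set largely by the 10 CPM added. There Ccl17 had 6 UMIs and 2.86 CPM in the large tumor against 11.5 CPM in the medium tumor. Prtn3 had 1 UMI and 0.48 CPM against 11.5 CPM, so it was far lower in the other cells too. The ferritin light chain Ftl1, which has many pseudogenes, had 3641 against 21573 CPM (0.17, and 0.13 in the other cells), and Zfp36 and Psmb8 had ratios of 0.29 and 0.29 (0.60 and 0.58 in the other cells).
Of the list of hypoxia and glycolysis genes, 5 of 9 were lower, beside 8.23% of all genes, among them the glycolytic Gapdh (0.17) and Aldoa (0.27), whose ratios in the other cells were 0.14 and 0.27. Of the list of immediate early and stress genes, 6 of 14 were lower, beside the same 8.23%, such as Junb (0.45, and 0.42 in the other cells). After adjustment for GC content Junb stood at 0.56, Jund at 0.69 and Ier2 at 0.69, so they were then not past 2-fold. With 50 CPM added Jund stood at 0.57 and Ier2 at 0.53. Lyz2 (0.96), Fcer1g (1.07) and Tyrobp (0.82) were close to 1.

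**Figure D5:**
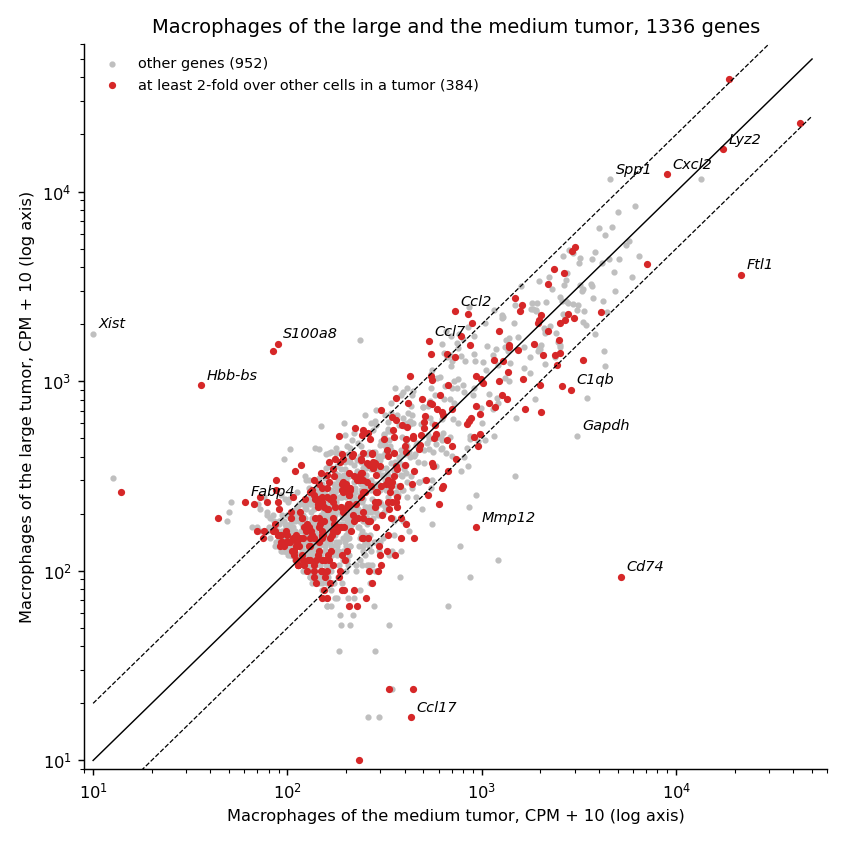
CPM plus 10 of 1336 genes in the macrophages of the medium tumor (x axis) and the large tumor (y axis), both on log axes, with red points for the 384 genes at least 2-fold over other cells in a tumor. The solid line marks equal levels and the dashed lines a 2-fold difference, and Cd74 lies furthest below them among the abundant genes.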

How the data were processed

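Single cells of 1 large and 1 medium KPC tumor were analysed from the deposited UMI counts, which the authors made from their reads with Cell Ranger on mm10 (both named in the submitters' processing notes; the version is not given in the sources used here) and left without normalization. All 1533 and 2812 barcodes were kept, and no doublet caller was run. Each tumor's 4 technical replicates are pooled in 1 table, so no test was run. UMIs were summed over the cells of a group and scaled to CPM. Ratios used 10 CPM added to both sides and genes with a mean of at least 100 CPM. Named genes are the rule's markers, genes of 35 lists, and those with the 15 highest CPM, the 15 highest ratios to other cells, and the 10 highest and 10 lowest ratios between tumors among genes at least 2-fold over other cells in a tumor. Some items these rules name are not reported here. The members and lists were chosen with earlier results of these data known. Cells were clustered with Seurat 5.3.0 in R 4.3.3 (10 principal components, resolution 0.8), TMM factors came from edgeR 4.0.16, and the rest was computed with Python 3.11.15. GC content came from GENCODE M21 transcripts of GRCm38. Alternatives changed the marker limits, the filter, the added constant, the scaling and the cells kept. The steps were tested on simulated data.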

Additional observations from a re-analysis of the deposited data

How the results depend on the processing

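No paired analysis was possible because the technical replicates are not separate in the tables and each tumor is 1 sample. The share of 11.7% became 15.1% with 2 macrophage markers, 7.89% with 4, 9.92% with 0 epithelial markers allowed, 9.46% for cells thinned to 500 UMIs, 16.5% by cluster, 8.09% without Lyz2 and 9.46% without C1qc in the rule. Genes at least 2-fold higher than in other cells numbered 256, and 418 with a filter at 50 CPM, 136 at 200 CPM and 996 with none. Between the tumors, the 126 higher and 110 lower genes became 216 and 203 at 50 CPM, 84 and 58 at 200 CPM and 544 and 1118 with no filter. The higher genes numbered 83 with 50 CPM added, 78 with TMM scaling, 62 after adjustment for GC content, and 55 (with 40 lower) relative to the other cells of each tumor. The last 2 settings, and leaving out the 2 unusual cells, were chosen after seeing the data. Among 1121 pairs of a named gene and a setting, 17 changed direction. A filter on level cannot change a ratio, and an added constant cannot turn its direction. Many pairs were thus fixed in advance, and the total does not measure robustness. Most of the 17 fell in a single setting, the ratios relative to the other cells of each tumor. The ratio of Camp between tumors was 0.707 with 4 markers, 0.710 for thinned cells and 0.720 without the 2 cells, and that of Retnla was 1.04 with 0 epithelial markers allowed. Relative to the other cells, it was 1.27 for Ftl1, 1.02 for Aldoa, 1.37 for C4b, 0.600 for Cxcl3, 2.90 for Ecm1, 1.04 for Eno1, 0.106 for Fabp1, 1.19 for Gapdh, 1.06 for Grn, 1.06 for Junb, 1.78 for Jund, 1.28 for Pkm and 0.729 for Thbs1. The cause of these changes was not tested. Depth limits the large tumor most, where a gene under 20.8 CPM can be at 0 UMIs.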

Other observations

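Cell cycle genes were detected in the macrophages of the large tumor, all 14 of the list, 6 of them with 10 or more UMIs. The list summed to 1807 CPM against 1680 CPM in the other cells. Only 4 of the genes passed the level filter, and none of these was past 2-fold against the other cells. Of all genes 18.6% were higher and 12.6% lower, so a count over 4 genes says little. Top2a, a topoisomerase of dividing cells, had 10 UMIs in 10 cells, and Mki67 had 6 UMIs in 6 cells. Among checkpoint genes, the inhibitory receptor Lilrb4a had 755 CPM in 73 cells, while Cd274, which encodes PD-L1, had 2 UMIs in 1 cell.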
